A study of Drosophila melanogaster with 18 samples.

Results

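Loss of the polarity gene scrib was followed in eye-antennal discs of Drosophila melanogaster that were also mutant for fos, so that the change measured is the one that takes place when the gene for Fos is mutated on both sides of the comparison. The libraries were chosen by their labelled genotype alone, with no measured value in the choice. The 3 libraries with both scrib1 and fosKM (scrib fos) and the 3 with fosKM alone (fos) are 6 of the 18 in the series. The same loss with fos intact, 3 libraries of the scrib1 mutant (scrib) against 3 of the FRT82B control (control), served as the comparison. CtBP87De-10 scrib1 (CtBP scrib) and CtBP87De-10 (CtBP) libraries, 3 each, gave a further background. In every genotype, the control included, flies carried eyFLP, a flippase expressed from an eyeless driver, and the tested FRT82B chromosome arm 3R over an arm with a cell-lethal mutation. In that design flippase-induced recombination in the disc leaves cells homozygous for the tested arm, while tissue in which the driver is not active, and the rest of the animal, stays heterozygous. The labels describe cells that were sorted before RNA extraction, and RNA of sorts from several days pooled into 3 samples a genotype. Every library mutant for scrib carries the scrib1 allele, so loss of scrib and other differences of the chromosome that carries it cannot be told apart. How the cells were gated is not given here. Since the labels do not say that the 3 pools of a genotype came from separate animals, p-values measure the spread between these pools, which may be technical.

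Scribble is a scaffold protein that acts with Discs large and Lethal (2) giant larvae at the lateral membrane of epithelial cells, where it keeps apical proteins out. Imaginal discs that lose it become disorganised and overgrow. The Jun kinase (JNK) cascade is activated in such discs and acts on transcription through the dimer AP-1, made of Fos (gene kayenta, kay) and Jun (gene Jra). The Hippo pathway is disturbed as well: when its kinase Warts is less active, the coactivator Yorkie enters the nucleus and turns on growth genes together with Scalloped. The eye-antennal disc gives rise to the compound eye, the antenna and the head capsule, and a wave of photoreceptor differentiation crosses its eye part in the late larva.

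The 6 libraries held 29499271, 26091695 and 35510575 counts in scrib fos and 25791225, 31282162 and 25672312 counts in fos, within a range of 22294940 to 35510575 over all 18. Levels are given as CPM, the counts scaled to a common effective library size, so that they compare one gene between libraries and not genes with each other. Replicate 1 of every genotype stood apart from replicates 2 and 3. In scrib fos the chi-square per degree of freedom was 50.8 and 77.9 for the pairs with replicate 1 against 17.5 for the other pair, and in fos it was 43.0 and 25.2 against 9.05. Heat shock genes of the Hsp70 group took 0.537% of the counts in scrib fos replicate 1, against 0.0767% and 0.0657% in replicates 2 and 3, and 0.303% in fos replicate 1, against 0.0353% and 0.0843%. Transcripts of the targeted genes were present in all groups. The gene kay (chr3R:29765995-29794113, BDGP6 assembly, plus strand) had 151, 119 and 146 CPM in scrib fos and 91.5, 107 and 111 CPM in fos, against 226, 205 and 213 in scrib and 134, 84.1 and 108 in control. Its log2 fold change in scrib fos over fos was 0.43 ± 0.13 (SE, adjusted p = 0.0158), and the call was lost without replicate 1 of every genotype (0.29, adjusted p = 0.0719), without scrib fos replicate 1 (adjusted p = 0.0566) or without fos replicate 1 (adjusted p = 0.0518). The gene scrib (chr3R:26536350-26604051, plus strand) had 438, 427 and 449 CPM in scrib fos and 474, 482 and 464 CPM in fos, with a log2 fold change of -0.11 ± 0.07 (SE, adjusted p = 0.217). Counts over whole genes do not show whether an altered transcript still makes protein, so neither gene checks the labels. Defining genes of the eye disc were present in all 6 libraries: eyeless (ey) averaged 166 ± 4.59 CPM in scrib fos and 125 ± 1.85 in fos, and eyes absent (eya) 219 ± 3.21 CPM in scrib fos and 353 ± 1.19 in fos (SD, n = 3 each). Some genes given per library overlap the annotated span of another tested gene, and their reads may be shared with it: Ald1, CycE, Diap1, Fib, Glt, Ilp8, Mmp1, Mmp2, Myc, Oseg5, Root, Socs36E, Tdc1, Tdc2, Tig, TwdlE, ZnT77C, cher, crq, dpr16, ex, insc, lectin-28C, moody, pros, puc, repo, sev and srp. Without strand the reads of a gene and of a partner on the other strand cannot be told apart.

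Loss of scrib changed many genes in the absence of normal fos. Of 10834 genes tested with edgeR's quasi-likelihood test at a Benjamini-Hochberg adjusted p below 0.05, 5138 (47.4%) differed between scrib fos and fos, 2491 higher (23.0%) and 2647 lower (24.4%) in scrib fos. Large changes were mostly falls: 96 genes (0.886%) were called and at least 2-fold higher, against 1005 (9.28%) at least 2-fold lower, and past 4-fold the counts were 27 and 354. The libraries of both groups did not overlap in 6075 genes (56.1%). With fos intact, loss of scrib called 5796 genes (53.5%), 3014 higher (27.8%) and 2782 lower (25.7%) in scrib, of which 389 were at least 2-fold higher and 1131 at least 2-fold lower. The median log2 fold change over all genes was -0.01 in scrib fos over fos and 0.01 in scrib over control.

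The falls were shared by both backgrounds more widely than the large rises. Called in the same direction with and without normal fos were 3366 genes (31.1% of those tested), which is 65.5% of the genes called in scrib fos over fos and 58.1% of those called in scrib over control. These were 1574 higher and 1792 lower genes. For 2607 of them the interaction, the difference between the change in the fos mutant and the change with fos intact, was not called, which does not show that the changes were equal. For 259 of the higher and 386 of the lower genes the interaction was called and the change was smaller in the fos mutant, and for 41 and 73 it was larger. Of the 389 genes at least 2-fold higher in scrib over control, 133 were also higher in scrib fos over fos, 215 were not called and 41 were lower, and their median log2 fold change was 0.18 in scrib fos over fos against 1.57 in scrib over control. Of the 1131 genes at least 2-fold lower in scrib, 901 were also lower in scrib fos over fos, 223 were not called and 7 were higher, with a median of -1.30 in scrib fos over fos against -1.83 in scrib over control. These genes were chosen by their change in scrib over control, so their level in that comparison is fixed by the choice. Across all genes the log2 fold changes of the comparisons, which share no library, had a Pearson r of 0.622 and a Spearman rho of 0.599, as a description across genes that are not independent. In the CtBP mutant loss of scrib called 6014 genes (55.5%), and 2767 genes (25.5%) were called in the same direction in all 3 backgrounds, of which 1241 were higher and 1526 lower.

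**Figure D1:**
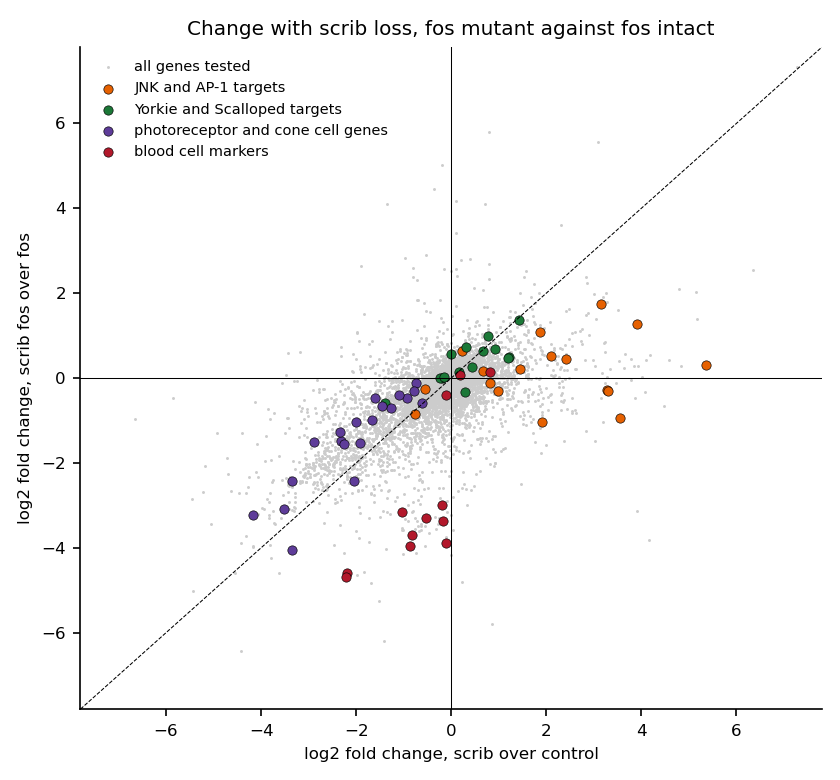
Change of each tested gene with loss of scrib (log2 fold change) in the fos mutant (vertical axis, scrib fos over fos) and with fos intact (horizontal axis, scrib over control), with 4 gene lists coloured and the dashed line marking equal change. Most JNK and AP-1 targets lie to the right of 0 near the horizontal axis, photoreceptor genes lie below 0 on both axes, and most blood cell markers lie far below the line.

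The interaction was called for 2517 genes (23.2%), 1145 above 0 (10.6%) and 1372 below 0 (12.7%). In the first 2 principal components of the 12 libraries, which held 55.9% and 20.8% of the variance, the scrib fos libraries lay at 16.3 to 23.1 on the first, against -36.7 to -35.4 for fos, while scrib lay at 48.4 to 50.4 and control at -34.8 to -31.3. On the second component scrib fos stood at 30.2 to 40.5, fos at -4.21 to -0.74, scrib at -25.6 to -20.7 and control at -12.6 to -7.24. The scrib fos libraries lay between fos and scrib on the first component and apart from all of the others on the second. Wherever a gene list had members called in 1 direction only in scrib fos over fos, the other direction also had 0 members by edgeR at an unadjusted p below 0.05 and 0 by DESeq2, except 1 immune gene at an unadjusted p.

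**Figure D2:**
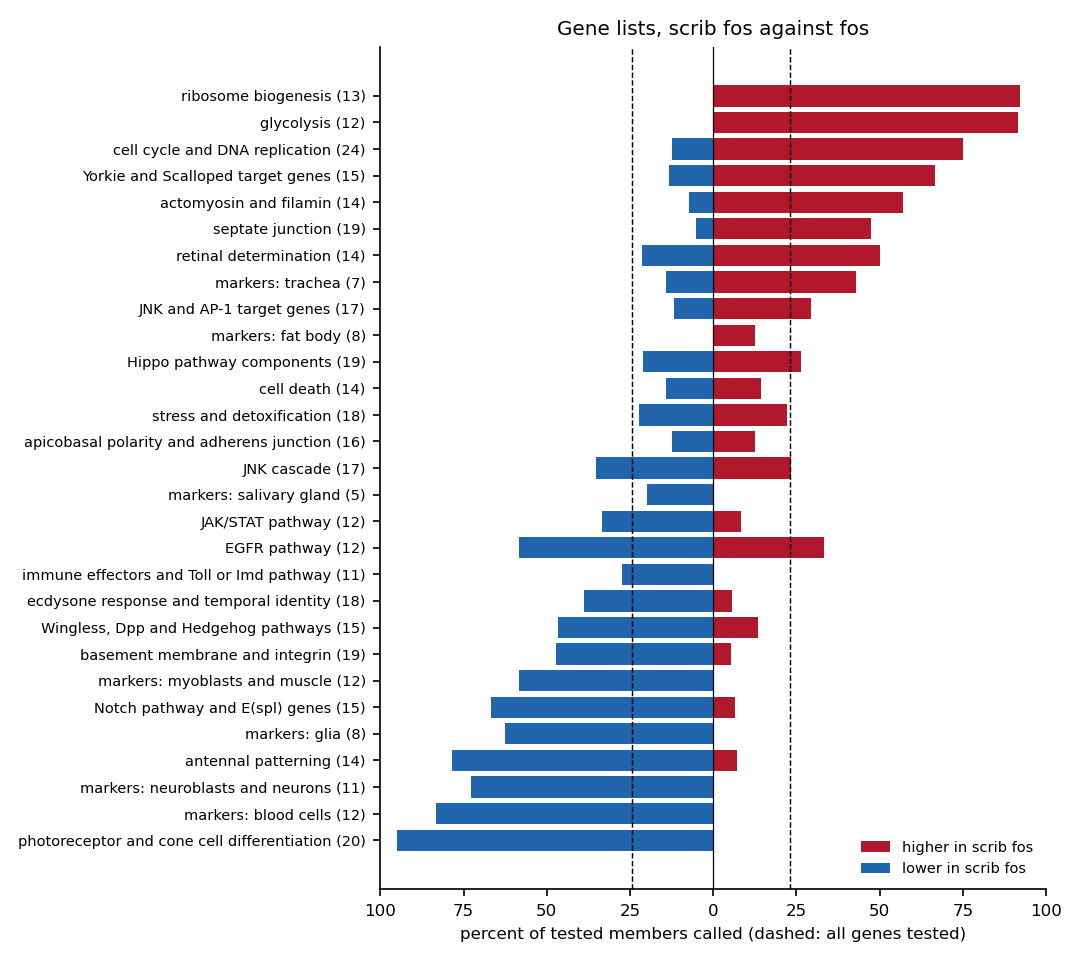
Percent of the tested members of each gene list called higher (red, right) or lower (blue, left) in scrib fos against fos, with the number of tested members in brackets and dashed lines at the shares over all genes tested, 23.0% higher and 24.4% lower. Ribosome biogenesis and glycolysis stand at the top with members called higher only, and photoreceptor genes and blood cell markers at the bottom with members called lower only.

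Targets of Yorkie and Scalloped, growth and survival genes that the Hippo pathway holds down, were raised by loss of scrib in the fos mutant. Of 15 tested targets 10 were higher and 2 lower in scrib fos, where 23.0% and 24.4% of all genes were, and their median log2 fold change was 0.48 (all genes -0.01). With fos intact 10 were higher and 4 lower, with a median of 0.31. Of the 10 higher in scrib fos, 9 were also higher in scrib, among them kibra, expanded (ex), dally and dlp, and the other was Diap1.

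Kibra and Expanded are upstream activators of the Hippo kinases whose genes are themselves Yorkie targets. kibra (chr3R:14697689-14724261, minus strand) had 116, 113 and 124 CPM in scrib fos against 46.8, 43.1 and 47.8 CPM in fos. The log2 fold change of kibra was 1.36 ± 0.07 (SE, adjusted p = 1.65e-11), beside 1.43 in scrib over control. Every scrib fos library was above every fos library, and the interaction of -0.07 was not called (adjusted p = 0.685). ex (chr2L:431227-448701, plus strand) had 978, 978 and 975 CPM in scrib fos and 497, 488 and 482 CPM in fos, a log2 fold change of 1.00 ± 0.06 (SE, adjusted p = 6.47e-11). The gene had 957, 826 and 787 CPM in scrib and 494, 504 and 511 in control. The interaction of 0.23 missed the threshold (adjusted p = 0.0520) and passed it in 8 of the other settings tried.

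Diap1, the inhibitor of caspases, rose where fos was mutant and did not where fos was intact. It had 455, 456 and 463 CPM in scrib fos against 304, 304 and 322 CPM in fos, and 324, 303 and 305 in scrib against 339, 299 and 291 in control. The fos, scrib and control libraries overlapped with each other, and the scrib fos libraries lay above all of them. The log2 fold change was 0.56 ± 0.05 (SE, adjusted p = 3.49e-08) in the fos mutant and 0.00 with fos intact (adjusted p = 0.959), and the interaction was 0.56 ± 0.07 (SE, adjusted p = 9.72e-06). CycE, the cyclin that drives entry into S phase, had 125, 119.6 and 116 CPM in scrib fos and 76.1, 70.8 and 69.7 in fos, a log2 fold change of 0.73 that was 0.42 larger than with fos intact (adjusted p = 2.51e-04). The scrib fos and fos libraries did not overlap.

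The heparan sulfate glypicans dally and dlp, which bind secreted signals at the cell surface, had log2 fold changes of 0.68 and 0.65 in scrib fos over fos, beside 0.93 and 0.67 in scrib over control. Four-jointed (fj), a Golgi kinase that modifies the Fat and Dachsous cadherins, averaged 299.9 ± 7.83 CPM in scrib fos and 214 ± 8.85 in fos (SD, n = 3 each). Its rise of 0.49 in the fos mutant was smaller than with fos intact by 0.74 on the log2 scale (adjusted p = 7.52e-08). The EGFR ligand gene vein (vn) rose by 0.48 on the log2 scale in the fos mutant, beside 1.19 with fos intact. Myc went the other way: it had 235, 205 and 182 CPM in scrib fos against 258, 276 and 243 CPM in fos, a log2 fold change of -0.32 ± 0.10 (SE, adjusted p = 0.0179) in the fos mutant, beside 0.28 (higher in scrib) with fos intact. The call for Myc was lost without scrib fos replicate 2 or 3, or fos replicate 2. Wnt2 was lower in both backgrounds, with log2 fold changes of -0.59 in the fos mutant and -1.39 with fos intact.

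Among components of the Hippo pathway itself, 5 of 19 were higher and 4 lower in scrib fos, close to the 23.0% and 24.4% of all genes, with a median of 0.01 (8 were higher without scrib replicate 1). Of the 5, kibra, ex, fj and Merlin (Mer) also stand in the list of targets, and the fifth was the kinase gene warts (wts), which averaged 118 ± 2.64 CPM in scrib fos and 89.1 ± 0.410 in fos (log2 fold change 0.41, adjusted p = 2.32e-05). Transcripts of yorkie (yki) had a log2 fold change of 0.11 and those of hippo (hpo) -0.04, both not called, while scalloped (sd) fell by 0.21 on the log2 scale.

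**Figure D3:**
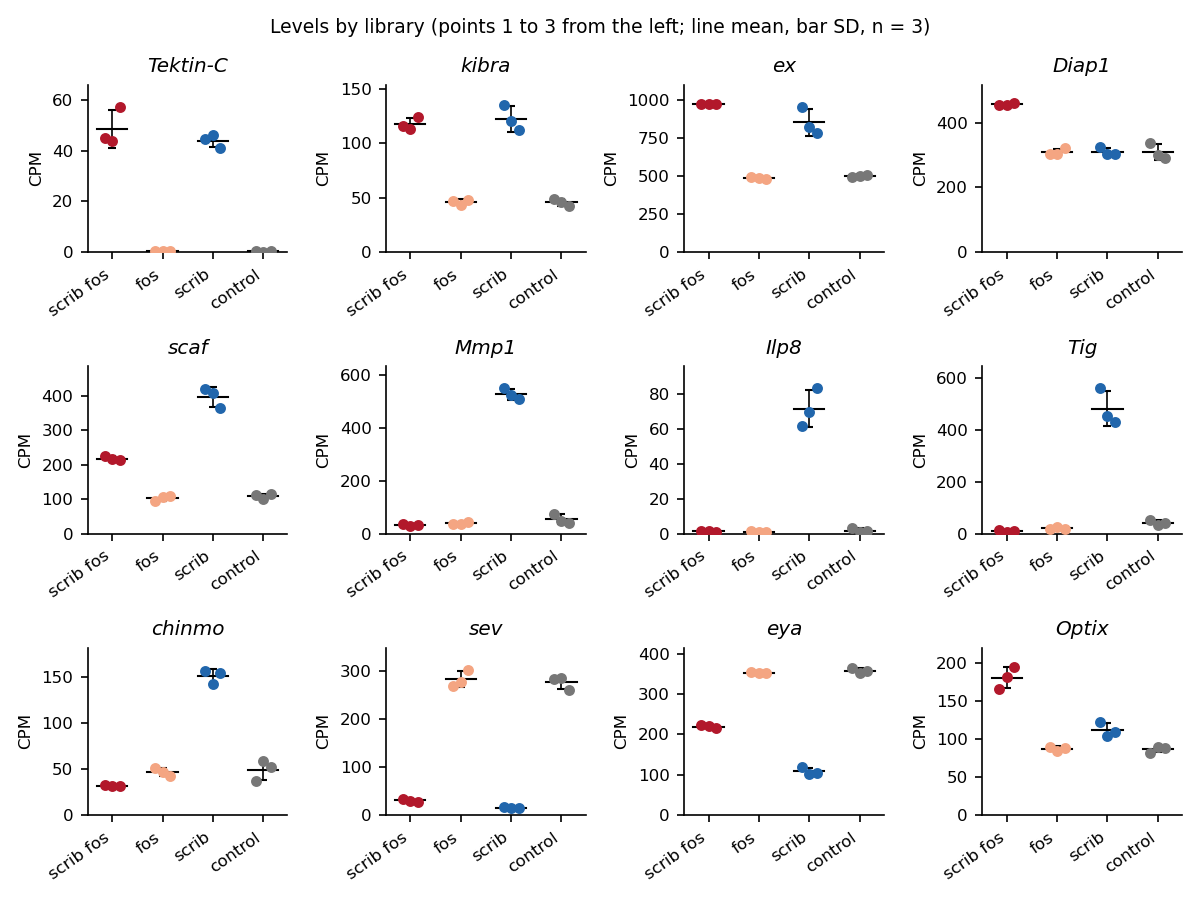
Level of 12 genes in each library (CPM, linear axes from 0) for scrib fos, fos, scrib and control, with points for replicates 1 to 3, a line at the mean and a bar of 1 SD. Tektin-C, kibra and ex were high in both scrib fos and scrib, Diap1 was highest in scrib fos, and Mmp1, Ilp8 and Tig were high in scrib alone of these 4 genotypes.

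Genes listed as targets of JNK and AP-1 responded far less where fos was mutant. The list was chosen with earlier results of these data known, so its counts are a description and no independent test. Of 17 tested, 5 were higher and 2 lower in scrib fos (23.0% and 24.4% of all genes), with a median log2 fold change of 0.17, whereas 14 were higher and 2 lower in scrib, with a median of 1.91. The interaction was called below 0 for 12 of them. Without replicate 1 of every genotype the number lower in scrib fos was 5, with Ets21C (-1.91, adjusted p = 9.43e-05), Mmp1 and upd1 (-0.47, adjusted p = 0.0132) added.

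Mmp1, a secreted matrix metalloproteinase, had 36.7, 26.6 and 31.0 CPM in scrib fos against 36.001, 36.2 and 43.3 in fos, and 551, 523 and 509 in scrib against 74.9, 46.5 and 41.6 in control. All scrib fos and fos libraries lay below every scrib library. Its log2 fold change was -0.29 ± 0.19 (SE, adjusted p = 0.234) in the fos mutant, and -0.46 without replicate 1 of every genotype (adjusted p = 0.00179). The interaction was -3.57 ± 0.27 (SE, adjusted p = 6.17e-07). Ilp8, the relaxin-like hormone by which damaged discs delay metamorphosis, had 1.51, 1.29 and 1.11 CPM in scrib fos and 1.45, 0.793 and 0.930 in fos, where the libraries overlapped, and 61.6, 69.7 and 83.0 in scrib against 3.11, 0.613 and 1.41 in control. Its interaction of -5.06 had an adjusted p of 5.97e-05. Tiggrin (Tig), an extracellular ligand of integrins, had 13.3, 6.91 and 10.1 CPM in scrib fos and 17.1, 23.4 and 17.99 in fos, against 559, 453 and 431 in scrib and 50.4, 31.6 and 40.5 in control. It fell by 0.95 on the log2 scale in scrib fos (SE 0.26, adjusted p = 0.00910) and rose by 3.56 in scrib, so that the direction differed between the backgrounds. The other target called lower was Ance, a peptidase, which fell in both backgrounds (-0.84 in scrib fos over fos and -0.76 in scrib over control).

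The 5 targets that rose in scrib fos were scarface (scaf), cheerio (cher), Gadd45, Pvf1 and puckered (puc). scaf, which encodes a secreted protease homologue, had 226, 216 and 212 CPM in scrib fos and 94.7, 106 and 108 in fos. Its libraries did not overlap and the log2 fold change was 1.08 ± 0.07 (SE, adjusted p = 2.57e-10), 0.79 less than with fos intact (adjusted p = 5.85e-06). cher, the gene of the actin crosslinker filamin, had 344, 321 and 406 CPM in scrib fos and 242, 264 and 240.1 in fos, a log2 fold change of 0.52 ± 0.09 (SE, adjusted p = 1.46e-04), beside 2.09 with fos intact. puc, a phosphatase that acts on JNK and a standard reporter of its activity, had 50.9, 42.2 and 41.5 CPM in scrib fos and 39.4, 37.2 and 40.3 in fos. The rise of 0.20 was lost without scrib fos replicate 1 (0.10, adjusted p = 0.192) and without replicate 1 of every genotype (0.11, adjusted p = 0.194). In scrib, puc had 125, 123 and 123 CPM against 48.5, 40.4 and 46.1 in control. Gadd45 had a log2 fold change of 0.64, not called without replicate 1 of every genotype (adjusted p = 0.0671), and Pvf1, a growth factor of the PDGF and VEGF family, had 0.45, beside 2.42 in scrib.

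Of 17 members of the cascade itself, 4 were higher (2 without scrib fos replicate 1) and 6 lower in scrib fos, beside 23.0% and 24.4% of all genes. The TNF homologue eiger (egr) was lower in both backgrounds, with 18.5, 17.5 and 16.5 CPM in scrib fos and 40.6, 38.3 and 37.1 in fos and a log2 fold change of -1.14 ± 0.07 (SE, adjusted p = 9.82e-11). The kinase gene Mkk4 fell in scrib fos by 0.62 on the log2 scale, beside a rise of 0.12 in scrib. The adaptor gene Traf4 fell in both backgrounds, with -0.49 in the fos mutant and -1.27 with fos intact. Jra, the gene of Jun, rose by 0.35 in scrib fos (adjusted p = 1.28e-04) and by 0.82 in scrib. Transcripts of the Jun kinase gene basket (bsk) had a log2 fold change of 0.00 that was not called.

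JAK/STAT signalling is started by the secreted Unpaired ligands and damped by the SOCS protein Socs36E. Of 12 members 1 was higher, 4 were lower and 7 were not called in scrib fos, with a median of -0.05. Of all genes 23.0% were higher and 24.4% lower. In scrib 7 members were higher, with a median of 0.42. The genes upd1, upd2 and upd3 also stand in the list of JNK and AP-1 targets, and chinmo in that of the ecdysone response. upd1 had 3.76, 2.26 and 3.04 CPM in scrib fos and 3.88, 3.52 and 3.95 in fos, against 40.9, 37.7 and 36.7 in scrib and 5.57, 2.78 and 3.35 in control. upd2 had 3.46, 0.185 and 0.454 CPM in scrib fos and 0.261, 0.444 and 0.504 in fos, and upd3 1.41, 0.0370 and 0.284 CPM in scrib fos and 0.224, 0.381 and 0.0775 in fos. For upd2 and upd3 scrib fos replicate 1 stood far above the other 2 scrib fos libraries, and neither gene was called (adjusted p = 0.327 and 0.320). Their interactions were not called with all libraries. Without replicate 1 of every genotype the interaction was -6.50 for upd2 (adjusted p = 1.68e-07) and -5.41 for upd3 (adjusted p = 3.71e-04). That of upd3 was also called without scrib fos replicate 1 (adjusted p = 0.0161) or control replicate 1 (adjusted p = 0.0475). Socs36E had 79.9, 70.3 and 75.9 CPM in scrib fos against 94.5, 109 and 108 in fos, where it fell with a log2 fold change of -0.46 ± 0.08 (SE, adjusted p = 6.16e-05), and 226, 217 and 224 in scrib against 114, 97.1 and 106 in control. The receptor-like gene eye transformer (et) fell by 1.08 on the log2 scale, at a level of 1.01 CPM in scrib fos and 2.14 in fos, and the zinc finger gene zfh2 by 0.33.

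chinmo, which encodes a zinc finger factor of the early larval, undifferentiated state, had 33.0, 32.1 and 31.2 CPM in scrib fos and 51.0, 46.4 and 42.1 in fos, against 157, 143 and 155 in scrib and 36.9, 58.3 and 52.5 in control. It was lower in every scrib fos library than in any fos library, with a log2 fold change of -0.54 ± 0.13 (SE, adjusted p = 0.00406), and the interaction was -2.16 ± 0.19 (SE, adjusted p = 7.80e-07). Among 18 genes of the ecdysone response and temporal identity, 1 was higher and 7 lower in scrib fos (23.0% and 24.4% of all genes). In scrib 6 were higher and 10 lower (27.8% and 25.7% of all genes). Eip93F, a late factor of the ecdysone response, had 2.22, 2.07 and 1.87 CPM in scrib fos and 10.1, 12.4 and 12.3 in fos, a log2 fold change of -2.50 ± 0.17 (SE, adjusted p = 5.94e-10). The member that rose was ImpL2, a secreted binding protein of insulin-like peptides, with 710.2, 713 and 789 CPM in scrib fos and 406, 449 and 469.5 in fos (log2 fold change 0.74, adjusted p = 2.37e-06). ImpE2, a protein made in discs under ecdysone, fell in scrib fos by 1.35 on the log2 scale, and by 3.10 in scrib. The nuclear receptor gene Hr39 fell by 0.46 in scrib fos. The nuclear receptor gene Eip78C, which fell by 1.14 in scrib, had a log2 fold change of -0.03 in scrib fos that was not called.

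Genes of the cell cycle and DNA replication rose in scrib fos. Of 24 members 18 were higher and 3 lower (23.0% and 24.4% of all genes), with a median of 0.34, against 13 higher and 6 lower and a median of 0.13 in scrib. The interaction was called above 0 for 6 members. The genes of the replicative helicase gave log2 fold changes of 0.48 for Mcm2, 0.61 for Mcm3, 0.53 for Mcm5, 0.52 for Mcm6 and 0.54 for Mcm7. PCNA, the sliding clamp of DNA polymerase, had 236, 241 and 265 CPM in scrib fos and 172, 155 and 149 in fos, a log2 fold change of 0.64 ± 0.07 (SE, adjusted p = 3.55e-07). The libraries did not overlap, and PCNA rose by 0.44 in scrib. The mitotic kinase gene aurB rose by 0.62 in scrib fos, beside 0.26 in scrib, and the mitotic cyclin gene CycB by 0.43, beside 0.22. The 3 members that fell were dacapo (dap), an inhibitor of Cyclin E kinase, with -0.42, CycD with -0.33 and string (stg), the phosphatase that triggers mitosis, with -0.30.

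Glycolysis genes rose in scrib fos and mostly did not in scrib. Of 12 pathway genes 11 were higher and none lower in scrib fos (23.0% and 24.4% of all genes), with a median of 0.32. In scrib 1 was higher and 5 lower (27.8% and 25.7% of all genes), with a median of -0.11. The interaction was called above 0 for 10 and below 0 for 1. Aldolase (Ald1) had 349.9, 356 and 409 CPM in scrib fos against 262, 287 and 290.0 in fos, and 286, 287 and 281 in scrib against 297, 280.1 and 296 in control. The log2 fold change was 0.41 ± 0.06 (SE, adjusted p = 9.91e-06) in the fos mutant, and the interaction was 0.44 ± 0.08 (SE, adjusted p = 4.58e-04). Triose phosphate isomerase (Tpi) had 142, 158 and 193 CPM in scrib fos and 124, 129 and 138 in fos, a rise of 0.33 on the log2 scale, and 96.6, 96.7 and 100.8 in scrib against 139, 128 and 129 in control, a log2 fold change of -0.43. Of the other members, Gapdh1 rose by 0.43 and Pglym78 by 0.41 in scrib fos, and neither was called in scrib. Hex-A, the hexokinase that starts the pathway, rose in both backgrounds, by 0.17 in the fos mutant and 0.41 with fos intact. The other member was lactate dehydrogenase (Ldh), with 54.8, 30.2 and 32.8 CPM in scrib fos and 17.0, 16.0 and 19.7 in fos, which was uneven among the control libraries (194, 16.1 and 15.9 CPM). Its log2 fold change of 1.16 ± 0.78 (SE, adjusted p = 0.245) was not called in the fit over all libraries, and it was called higher without control replicate 1 (1.18, adjusted p = 5.04e-04), without replicate 1 of every genotype (0.83, adjusted p = 1.08e-04) and with only the groups compared in the fit (adjusted p = 0.0177). Its interaction of 1.25 was not called (adjusted p = 0.459) and was -1.44 without replicate 1 of every genotype (adjusted p = 4.95e-05).

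Transcripts of ribosome biogenesis genes rose in both backgrounds. Of 13 genes 12 were higher and none lower in scrib fos (23.0% and 24.4% of all genes), with a median of 0.26. In scrib 13 were higher (27.8% of all genes), with a median of 0.45. Fibrillarin (Fib), the methyltransferase of ribosomal RNA, had 198, 198 and 259 CPM in scrib fos and 184, 171 and 175 in fos, a log2 fold change of 0.31 ± 0.08 (SE, adjusted p = 0.00332). NHP2, a protein of the guide RNA particles that modify ribosomal RNA, had 91.1, 98.3 and 97.1 CPM in scrib fos and 76.4, 78.1 and 71.9 in fos, a log2 fold change of 0.34 ± 0.05 (SE, adjusted p = 2.94e-05). The libraries of both genes did not overlap. The nucleolar protein genes Nopp140 and Nop56 rose by 0.28 and 0.29. The interaction was called below 0 for 6 members, the largest of them modulo (mod), a nucleolar protein that rose by 0.19 in scrib fos and 0.89 in scrib.

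**Figure D4:**
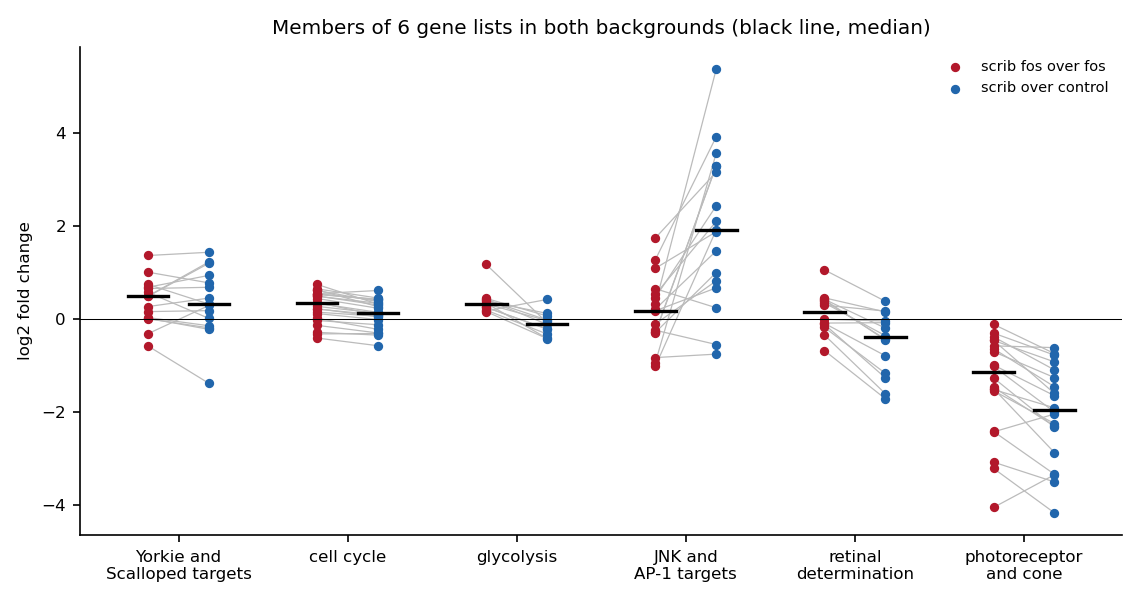
Log2 fold change of each member of 6 gene lists with loss of scrib in the fos mutant (red, scrib fos over fos) and with fos intact (blue, scrib over control), with lines joining the values of a gene and a bar at the median. Glycolysis genes lie above 0 in the fos mutant and mostly below 0 with fos intact (medians 0.32 and -0.11), JNK and AP-1 targets reach far higher with fos intact (0.17 and 1.91), and the medians of photoreceptor genes were -1.15 and -1.96.

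Polarity and junction genes moved little at the transcript level. Of 16 genes of apicobasal polarity and adherens junctions 2 were higher and 2 lower in scrib fos, against 23.0% and 24.4% of all genes, with a median of -0.02. Those higher were crumbs (crb), an apical determinant that is also a Yorkie target, with 0.26, and its binding partner Patj with 0.23. The call for crb was lost without scrib fos replicate 1 or 3, or fos replicate 1. Those lower were bazooka (baz), the Par-3 homologue, with -0.40, and the adhesion molecule echinoid (ed) with -0.27. The partners of scrib, dlg1 and l(2)gl, had log2 fold changes of -0.07 and 0.08, both not called, whereas l(2)gl rose by 0.52 in scrib. Of 19 septate junction genes, which seal the lateral space between cells, 9 were higher and 1 lower in scrib fos, with a median of 0.09 (11 and 1 in scrib). The 9 rises were small, the largest being crok at 0.26, Tsf2 at 0.24, Lac at 0.22 and pck, a claudin gene, at 0.21.

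Actomyosin genes rose as well, by less than with fos intact. Of 14 members 8 were higher and 1 lower in scrib fos (23.0% and 24.4% of all genes), with a median of 0.14. In scrib 10 were higher and 1 lower, with a median of 0.50, and the interaction was called below 0 for 10. The actin gene Act5C averaged 7246 ± 438 CPM in scrib fos and 5770.0 ± 90.2 in fos (SD, n = 3 each), a log2 fold change of 0.33 ± 0.04 (SE, adjusted p = 5.91e-06). Moesin (Moe), which ties actin to the membrane, rose by 0.21, beside 0.58 in scrib. The myosin light chain gene sqh rose by 0.16, a call lost without scrib fos replicate 3, beside 0.81 in scrib. enabled (ena), an actin polymerisation factor, was the member that fell, with 177, 170.2 and 165 CPM in scrib fos and 239, 255 and 254 in fos (log2 fold change -0.55), and it was not called in scrib (0.09).

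More genes that specify the eye primordium rose than fell in scrib fos, while most genes of its differentiation fell. Of 14 retinal determination genes 7 were higher and 3 lower (23.0% and 24.4% of all genes), with a median of 0.14. Those lower were eya, dan and danr, and the call for danr was lost without fos replicate 3 (adjusted p = 0.0658). In scrib 2 of the 14 were higher and 8 lower, with a median of -0.40. The interaction was called above 0 for 11. Optix, a homeobox gene, had 166, 181 and 194 CPM in scrib fos against 89.1, 84.0 and 88.5 in fos, and 122, 104 and 109 in scrib against 81.9, 89.2 and 87.4 in control. The scrib fos libraries lay above all others, with a log2 fold change over fos of 1.05 ± 0.07 (SE, adjusted p = 1.41e-10) and an interaction of 0.67 ± 0.09 (SE, adjusted p = 1.59e-05). The Pax6 genes ey and twin of eyeless (toy), which act at the top of the eye network, had log2 fold changes of 0.42 ± 0.10 (SE, adjusted p = 0.00293) and 0.34 ± 0.11 (SE, adjusted p = 0.0174), beside -0.20 (not called) and -0.37 in scrib. The Pax genes eyegone (eyg) and twin of eyegone (toe), which promote growth of the eye field, had 0.39 and 0.41 in the fos mutant, beside -0.44 and -0.46 with fos intact. The call for toy was also lost without replicate 1 of every genotype (adjusted p = 0.116). The calls for toy, eyg and toe were lost when 1 library was left out, scrib fos replicate 2 for toy, scrib fos replicate 3 for eyg and toe, and fos replicate 1 or 2 for toe. The zinc finger gene tiptop (tio) rose by 0.45 in scrib fos (adjusted p = 1.66e-05).

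The later members eya, dachshund (dac) and sine oculis (so) did not rise. eya, a cofactor of So, had 222, 219.7 and 216 CPM in scrib fos against 354, 352 and 353 in fos, and 119, 103 and 103 in scrib against 364, 352 and 356 in control. The log2 fold change of eya was -0.69 ± 0.07 (SE, adjusted p = 4.91e-08), 1.04 above the one with fos intact (adjusted p = 6.41e-08). dac and so fell by 1.27 and 0.80 on the log2 scale in scrib, beside log2 fold changes of -0.12 and -0.10 in scrib fos that were not called, with interactions of 1.15 and 0.70 (adjusted p = 1.67e-05 and 9.41e-05).

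Photoreceptor and cone cell genes fell in both backgrounds. Of 20 members 19 were lower and none higher in scrib fos (24.4% and 23.0% of all genes), with a median of -1.15. In scrib 20 were lower (25.7% of all genes), with a median of -1.96. For 15 the interaction was called above 0 (10.6% of all genes), a smaller fall in the fos mutant. sevenless (sev), the receptor of the R7 photoreceptor, had 34.4, 29.5 and 27.6 CPM in scrib fos and 271, 279 and 304 in fos, a log2 fold change of -3.22 ± 0.20 (SE, adjusted p = 3.47e-08). It had 17.2, 14.2 and 14.5 CPM in scrib and 283, 287 and 261 in control. prospero (pros), a factor of R7 and cone cells, had 3.56, 1.66 and 0.965 CPM in scrib fos and 53.1, 26.2 and 22.5 in fos, a log2 fold change of -4.06 ± 0.55 (SE, adjusted p = 5.80e-05). Every scrib fos library was far below every fos library for both genes. glass (gl), a factor of all photoreceptors, fell by 1.55 on the log2 scale, and the neuronal RNA-binding protein gene elav by 1.52. Genes that act first, at the furrow where differentiation starts, fell less: atonal (ato), which selects R8, had 41.3, 46.4 and 41.9 CPM in scrib fos against 60.2, 57.7 and 61.2 in fos (log2 fold change -0.47), and senseless (sens) -0.39. The cone cell factor gene sv had -3.09, and the zinc finger gene nerfin-1, the nuclear receptor gene svp and salm had -2.44, -2.43 and -1.28. The member that was not called was B-H1, with -0.12. In bulk RNA fewer cells of a type and less RNA per cell cannot be told apart, here and for the other cell types.

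Notch pathway genes mostly fell in scrib fos and EGFR pathway genes went both ways, where 24.4% of all genes were lower and 23.0% higher. Of 15 genes of the Notch pathway and the Enhancer of split complex 10 were lower and 1 higher in scrib fos, with a median of -0.59 (13 and 1 in scrib, median -1.29). E(spl)mdelta-HLH, a Notch-induced repressor, had 22.1, 21.96 and 18.2 CPM in scrib fos and 69.0, 65.0 and 67.9 in fos, a log2 fold change of -1.70 ± 0.12 (SE, adjusted p = 1.62e-08). E(spl)m4-BFM and E(spl)m3-HLH of the same complex had -1.03 and -0.72. The gene that rose was fringe (fng), the glycosyltransferase that modifies Notch, with 0.33. Of 12 EGFR pathway genes 7 were lower and 4 higher, and rho of this list also stands among the photoreceptor genes. pointed (pnt), the ETS activator of the pathway, had 68.1, 64.3 and 57.3 CPM in scrib fos and 143, 149.8 and 144 in fos, a log2 fold change of -1.21 ± 0.08 (SE, adjusted p = 2.63e-10), and the feedback inhibitor genes argos (aos) and kek1 had -0.82 and -1.12. The ligand spitz (spi) and the receptor Egfr rose by 0.25 and 0.33.

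Antennal patterning genes fell in like numbers in both backgrounds, 11 of 14 lower and 1 higher in scrib fos and 11 and 1 in scrib, with medians of -0.37 and -0.73. Of all genes 24.4% were lower and 23.0% higher in scrib fos. spineless (ss), which gives the antenna its identity, had 45.4, 44.8 and 49.4 CPM in scrib fos and 78.7, 78.3 and 83.7 in fos, a log2 fold change of -0.78 ± 0.06 (SE, adjusted p = 4.28e-09), beside -0.85 in scrib. The homeobox gene Lim1 had -0.56 in scrib fos over fos and -0.58 in scrib over control. Some genes stand in this list and in an eye list, dan, danr and hth with retinal determination and ct, salm, B-H1 and B-H2 with photoreceptor genes. Of 15 genes of the Wingless, Dpp and Hedgehog pathways 2 were higher and 7 lower in scrib fos, with a median of -0.04. Wnt4, a secreted Wnt ligand, had 8.74, 7.25 and 9.39 CPM in scrib fos and 17.1, 18.6 and 20.5 in fos (log2 fold change -1.14), the Wingless target fz3 had -0.47, and engrailed (en), a homeobox gene of posterior identity, fell by 0.54 on the log2 scale, beside a log2 fold change of 0.01 (not called) in scrib. The morphogen gene dpp, which rose by 0.65 in scrib, had a log2 fold change of -0.03 in scrib fos.

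Blood cell genes were lower in scrib fos than in fos, and lower than in scrib. Of 12 tested markers 10 were lower and none higher in scrib fos against fos, with a median log2 fold change of -3.34. Of all genes 24.4% were lower and 23.0% higher. The summed level of the markers was 118 to 139 CPM in scrib fos against 366 to 431 CPM in fos. With fos intact 6 markers were lower and 2 higher (25.7% and 27.8% of all genes), with a median of -0.36. For 10 markers the interaction was called below 0 (12.7% of all genes). PPO2 and PPO1, the prophenoloxidases of crystal cells, fell most. PPO2 had 2.28, 4.58 and 2.70 CPM in scrib fos and 75.8, 88.3 and 77.2 in fos, against 15.03, 26.8 and 30.5 in scrib and 94.7, 84.5 and 156 in control, and its log2 fold change over fos was -4.68 ± 0.40 (SE, adjusted p = 8.29e-07). The phagocytosis receptor NimC1, a marker of plasmatocytes, had 0.874, 0.629 and 0.568 CPM in scrib fos and 8.27, 11.2 and 11.3 in fos, against 9.52, 8.02 and 12.2 in scrib and 9.53, 9.92 and 12.8 in control. Its log2 fold change was -3.90 ± 0.29 (SE, adjusted p = 1.64e-08) in the fos mutant and -0.12, not called, with fos intact. Hemolectin (Hml), a clotting protein, had 2.69, 2.74 and 2.70 CPM in scrib fos and 28.8, 41.3 and 34.4 in fos. eater, another phagocytosis receptor, had 1.81, 1.37 and 2.02 CPM in scrib fos and 23.0, 27.4 and 31.9 in fos. For each of these genes every scrib fos library lay far below every fos library. No marker tested was at 0 in all scrib fos libraries, and the GATA factor gene srp stood at 0.437, 0.776 and 0.710 CPM there against 5.55, 6.09 and 7.56 in fos. Sr-CI, a scavenger receptor, had -3.37. Of the markers that did not fall, croquemort (crq) had 89.3, 81.5 and 67.5 CPM in scrib fos and 75.2, 76.0 and 75.5 in fos, and ItgaPS4 averaged 1.03 CPM in scrib fos and 0.914 in fos. ush, which the disc also expresses, fell by 0.39 on the log2 scale.

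**Figure D5:**
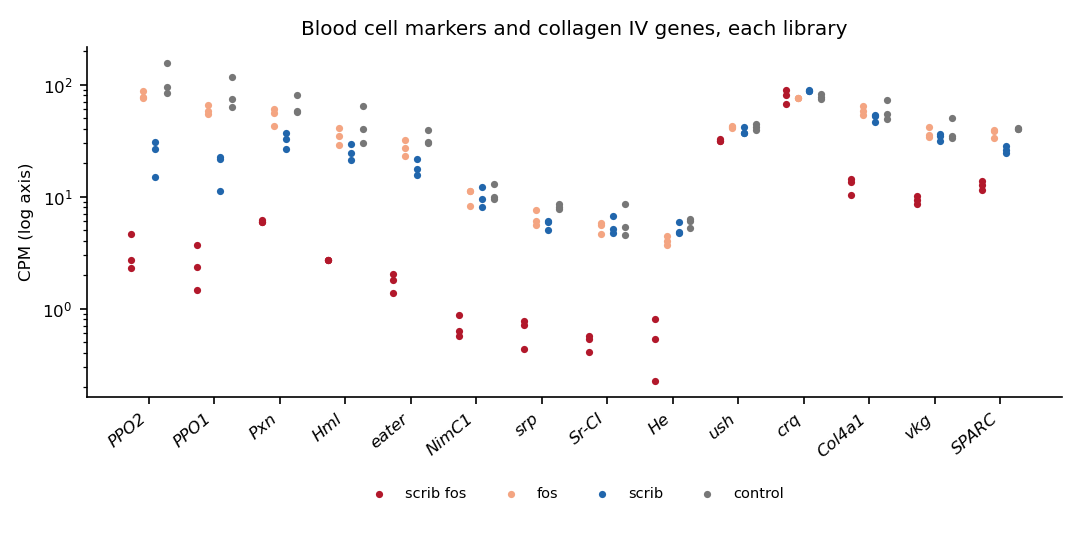
Level of 11 blood cell markers, the collagen IV genes Col4a1 and vkg, and SPARC in each library (CPM, log axis) for scrib fos, fos, scrib and control. For 9 of the markers and for the 3 matrix genes the scrib fos libraries lie well below those of the other 3 genotypes, while ush lies close to them and crq overlaps with them.

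Basement membrane genes fell along with the blood cell markers. Of 19 genes of the basement membrane and its integrin receptors 9 were lower and 1 higher in scrib fos (24.4% and 23.0% of all genes), with a median of -0.44. Collagen IV, the network protein of basement membranes, has chains encoded by Col4a1 and viking (vkg). Col4a1 had 13.5, 10.4 and 14.4 CPM in scrib fos against 53.9, 63.8 and 58.3 in fos, and 52.9, 46.2 and 52.97 in scrib against 48.8, 55.1 and 72.7 in control, with a log2 fold change over fos of -2.19 ± 0.22 (SE, adjusted p = 3.62e-06). vkg had 9.37, 8.65 and 10.05 CPM in scrib fos and 34.2, 41.6 and 35.5 in fos, a log2 fold change of -1.99 ± 0.21 (SE, adjusted p = 3.58e-06). SPARC, which binds collagen IV, had 12.7, 11.4 and 13.7 CPM in scrib fos and 33.2, 38.4 and 39.5 in fos. These 3 genes are expressed by blood cells and fat body as well as by other cells, and the part of the blood cell markers in their fall was not tested. Perlecan (trol) fell by 0.48 on the log2 scale in scrib fos, beside a rise of 0.30 in scrib. LanA, a laminin chain, fell by 0.44. Mmp2, a membrane-bound metalloproteinase, had 338, 337 and 305 CPM in scrib fos and 782, 779.5 and 794 in fos, a log2 fold change of -1.26 ± 0.07 (SE, adjusted p = 2.60e-11), beside -1.60 in scrib. The integrin gene mew was the member that rose, with 0.30.

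Markers of other cell types that the sort could hold were mostly lower or not called, where 24.4% of all genes were lower and 23.0% higher. Neuroblast and neuron markers, some of which photoreceptors express, fell in 8 of 11 cases with a median of -1.44, and none rose. brp, a protein of the synaptic active zone, averaged 20.7 ± 2.04 CPM in scrib fos and 103 ± 8.32 in fos, and nSyb, a synaptic vesicle protein, 6.12 ± 1.30 CPM in scrib fos and 25.8 ± 0.530 in fos (SD, n = 3 each). The neuroblast gene dpn fell by 1.25 on the log2 scale. The asymmetric division gene inscuteable (insc), which rose by 2.47 in scrib, had 10.7, 7.91 and 8.71 CPM in scrib fos and 7.57, 9.35 and 10.3 in fos. Glia markers fell in 5 of 8 cases, and their summed level was 668 to 704 CPM in scrib fos against 760.3 to 775 in fos. repo, the defining factor of glia, had 6.92, 7.54 and 7.27 CPM in scrib fos and 16.5, 16.0 and 14.7 in fos, and moody, a receptor of the glial blood-brain barrier, had 11.2, 8.39 and 8.26 CPM in scrib fos and 21.0, 22.7 and 22.9 in fos, beside 70.0, 65.3 and 64.0 in scrib and 32.2, 25.4 and 30.1 in control. Both fell, and the groups did not overlap. loco, a regulator of G proteins that the disc also expresses, fell by 0.52 on the log2 scale. Myoblast and muscle markers fell in 7 of 12 cases, with summed levels of 375 to 414 CPM in scrib fos against 609 to 724 in fos. The FGF receptor gene htl had 4.27, 3.48 and 3.18 CPM in scrib fos and 12.04, 11.0 and 10.8 in fos, and twist (twi), the defining factor of myoblasts, averaged 3.32 CPM in scrib fos and 4.46 in fos and was not called. The FGF adaptor gene stumps and the muscle gene sls fell by 0.98 and 0.85.

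Tracheal markers were higher in 3 of 7 cases and lower in 1 (23.0% and 24.4% of all genes). Those that rose were the chitin deacetylase genes serpentine (serp) and vermiform (verm) and piopio (pio), an apical matrix protein, which epidermal cells also express. serp had 539, 572 and 630.3 CPM in scrib fos and 251, 279.6 and 318 in fos, a log2 fold change of 1.04 ± 0.08 (SE, adjusted p = 1.54e-09), while the defining tracheal factor gene trh averaged 0.998 CPM in scrib fos and 1.05 in fos. Fat body markers were called in 1 of 8 cases, the lipase gene brummer (bmm, log2 fold change 0.42), a call lost without scrib fos replicate 1 or 3, or fos replicate 2 or 3. Larval serum protein genes of the fat body stood below 5 CPM on average in both groups, and of 5 salivary gland markers all stood below 1 CPM and 1, Sgs8, was lower, a call lost without scrib fos replicate 2, fos replicate 1 or replicate 1 of every genotype (adjusted p = 0.102).

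Of 14 cell death genes 2 were higher and 2 lower in scrib fos, beside 23.0% and 24.4% of all genes, and 4 were higher without replicate 1 of every genotype. Those higher were Diap1 and the caspase gene Drice, with 0.23. The death activators reaper (rpr) and hid had log2 fold changes of 0.17 and 0.01 that were not called with all libraries, whereas rpr rose by 0.66 and hid by 0.30 in scrib. Without replicate 1 of every genotype rpr (0.23, adjusted p = 0.0382) and the caspase gene Dcp-1 (0.13, adjusted p = 0.0362) were called higher in scrib fos. Those lower, grim and Buffy, stood at 0.237 and 0.706 CPM in scrib fos against 0.632 and 1.602 CPM in fos. Of 18 stress and detoxification genes 4 were higher and 4 lower, near the 23.0% and 24.4% of all genes, and 2 were lower without scrib fos replicate 2 or 3, or fos replicate 1 or 3. The small heat shock protein gene Hsp23 fell by 0.70 on the log2 scale, and cnc, the factor of the oxidative stress response, by 0.23, beside a rise of 0.32 in scrib. The extracellular superoxide dismutase gene Sod3 rose by 0.22 and the glutathione transferase gene GstE1 by 0.48. Of 11 immune genes 3 were lower (24.4% of all genes were) and none higher, the Toll ligand spz with -1.07, its processing enzyme SPE and the recognition protein PGRP-SD, each at a mean of at most 1.17 CPM in scrib fos. Of the 11, 1 was called higher without scrib replicate 1, 2 or 3. Without replicate 1 of every genotype 1 was lower, with adjusted p of 0.0768 for SPE and 0.100 for PGRP-SD. The call for PGRP-SD was also lost with DESeq2, with no filter, without scrib fos replicate 3 and without fos replicate 1 or 2.

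The largest rise in scrib fos was that of Tektin-C, a filament protein of ciliary and flagellar microtubules (chr3L:5794405-5796543, minus strand). It had 44.9, 43.8 and 57.2 CPM in scrib fos against 0.298, 0.222 and 0.388 in fos, and 44.5, 46.1 and 41.2 in scrib against 0.307, 0.144 and 0.388 in control. The log2 fold change was 7.33 ± 0.18 (SE, adjusted p = 1.27e-15) in the fos mutant, 7.27 with fos intact and 7.09 in the CtBP mutant. Levels in both scrib mutants overlapped, and the interaction was 0.07 (adjusted p = 0.938). The gene lies on the other arm of the chromosome that carries scrib. Other large rises were found in both backgrounds. dpr16, a surface protein of the immunoglobulin family, had 19.9, 21.1 and 23.4 CPM in scrib fos and 3.54, 4.28 and 4.65 in fos, a log2 fold change of 2.37, beside 2.83 in scrib. ZnT77C, a zinc transporter, had 70.5, 69.6 and 76.1 CPM in scrib fos and 16.0, 19.4 and 18.2 in fos (log2 fold change 2.01, beside 1.85 in scrib), and thw had 18.2, 16.0 and 17.4 CPM in scrib fos and 4.40, 5.45 and 5.35 in fos (1.76, beside 1.75 in scrib). FASN1, the fatty acid synthase, had 363, 330.0 and 350.0 CPM in scrib fos and 124, 132 and 117 in fos, and reached 1238, 1053 and 1005 CPM in scrib against 151, 151 and 158 in control, so its rise was smaller in the fos mutant by 1.36 on the log2 scale (adjusted p = 2.63e-08).

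The gene retinin and the locus of TwdlE and lectin-28C rose in the fos mutant and not with fos intact. retinin, a protein of the corneal lens (chr3L:16331933-16332789, plus strand), had 12.8, 12.6 and 13.5 CPM in scrib fos against 1.30, 1.52 and 2.71 in fos, and 0.637, 0.891 and 0.752 in scrib against 1.503, 1.62 and 1.34 in control. Its log2 fold change was 2.82 ± 0.18 (SE, adjusted p = 2.34e-10) in the fos mutant and -0.97 ± 0.26 (SE, adjusted p = 0.00381) with fos intact, an interaction of 3.79 (adjusted p = 2.57e-08). The cuticle protein gene TwdlE (chr2L:7857957-7860839, minus strand) and the C-type lectin gene lectin-28C (chr2L:7857077-7860120, plus strand) overlap on opposite strands, so that without strand their reads cannot be told apart and their values may describe 1 transcript. TwdlE had 111, 105 and 95.7 CPM in scrib fos and 15.4, 17.6 and 19.1 in fos, against 21.9, 22.6 and 20.5 in scrib and 40.1, 17.5 and 14.1 in control. lectin-28C had 88.7, 85.0 and 73.5 CPM in scrib fos and 12.6, 15.3 and 15.2 in fos, against 21.2, 20.6 and 20.1 in scrib and 33.7, 15.7 and 12.7 in control. Their log2 fold changes over fos were 2.58 ± 0.28 (SE, adjusted p = 8.80e-06) and 2.52 ± 0.26 (SE, adjusted p = 5.72e-06), with interactions of 2.72 and 2.53. Every scrib fos library lay above all others, and among the rest control replicate 1 was highest for both genes. ltl, a protein with leucine-rich repeats, rose in both backgrounds and by more in the fos mutant, with 59.7, 60.6 and 61.0 CPM in scrib fos and 19.5, 19.8 and 17.7 in fos (1.67, interaction 0.91). Oseg5, a protein of intraflagellar transport, had 11.4, 11.5 and 9.88 CPM in scrib fos and 3.58, 4.41 and 3.02 in fos (1.56, interaction 0.69).

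Among the 10 largest falls with a mean of at least 10 CPM, those of genes outside the blood cell list were of pros, Glt, Root, fipi and amon. Rootletin (Root), the protein of the ciliary rootlet of sensory neurons, had 2.18, 2.22 and 2.07 CPM in scrib fos and 24.1, 23.4 and 23.2 in fos, a log2 fold change of -3.45 ± 0.11 (SE, adjusted p = 3.85e-15). fipi, a surface protein of the immunoglobulin family, had 4.64, 3.77 and 4.17 CPM in scrib fos and 41.7, 45.8 and 47.2 in fos, a log2 fold change of -3.42 ± 0.10 (SE, adjusted p = 1.27e-15). amon, a convertase of neuropeptide precursors, had 3.09, 2.92 and 2.78 CPM in scrib fos and 27.7, 29.2 and 29.5 in fos, a log2 fold change of -3.30 ± 0.10 (SE, adjusted p = 3.52e-15). The libraries of scrib fos and fos did not overlap for any of them. These 3 genes fell by 3.71, 3.72 and 3.84 on the log2 scale with fos intact. Glutactin (Glt), a secreted protein of basement membranes, had 4.40, 5.66 and 5.22 CPM in scrib fos and 48.0, 63.5 and 70.2 in fos, and 49.0, 39.1 and 57.4 in scrib against 73.5, 71.3 and 80.0 in control. Its log2 fold change was -3.57 ± 0.31 (SE, adjusted p = 1.16e-06), in the range of the blood cell markers, and it was not called with fos intact (-0.63, adjusted p = 0.0527).

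Among genes called in scrib over control, the largest interactions below 0 were those of Ilp8 and Tig and of 3 genes whose levels in scrib fos were near those in fos. The tyrosine decarboxylase genes Tdc1 and Tdc2, close paralogs that make tyramine, rose by 4.57 and 4.02 in scrib. Tdc1 had 6.15, 2.14 and 2.87 CPM in scrib fos and 2.27, 2.66 and 3.33 in fos, and Tdc2 1.41, 0.666 and 0.568 CPM in scrib fos and 0.634, 0.920 and 1.01 in fos. aspr, which rose by 3.78 in scrib, had 2.69, 2.29 and 4.002 CPM in scrib fos and 2.87, 3.42 and 3.06 in fos. On the other side stood genes that fell far more with fos intact. Cpr97Ea, a cuticle protein, had 14.7, 15.2 and 15.3 CPM in scrib fos and 30.9, 37.5 and 41.8 in fos, against 1.09, 1.47 and 1.09 in scrib and 38.9, 34.7 and 37.0 in control. It fell by 1.29 on the log2 scale in the fos mutant and by 4.92 with fos intact. SK, a potassium channel gated by calcium, had log2 fold changes of -0.95 in the fos mutant and -3.43 with fos intact, and ect of -0.67 and -3.21. The serpin gene Spn43Aa and PGRP-LC, a receptor for bacterial peptidoglycan, fell by 2.69 and 1.92 with fos intact, and their values of -0.26 and 0.20 in the fos mutant were not called.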

How the data were processed

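RNA of sorted eye-antennal disc cells was sequenced from TruSeq libraries, per the labels' protocols. The authors deposited raw counts per gene for all 18 libraries, made with Subread and featureCounts on dm6, with edgeR also named, per the submitters' processing notes. Strand setting and annotation version are not given here. Of 17529 gene identifiers, 17425 matched a symbol in the Ensembl annotation BDGP6.54. With edgeR 4.0.16 in R 4.3.3, genes were filtered by genotype (10834 kept, 6695 not), TMM-normalised and fitted in 1 quasi-likelihood model over 6 genotypes (12 residual degrees of freedom). Calls are at a Benjamini-Hochberg adjusted p below 0.05, and SEs are the log2 fold change divided by the root of F. The fit was also run on simulated counts with few changed genes and no replicate effect, a simpler case than these data.

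The contrasts were scrib fos over fos, scrib over control, CtBP scrib over CtBP, and the first minus the second (the interaction). The members and the 29 gene lists (389 symbols, 376 tested, the others unmatched or with too few counts) were chosen with earlier results of these data known. Named genes were scrib and kay, the 10 largest called changes each way whose libraries did not overlap and reached a mean of 10 CPM, the 2 largest each way of any symbol, up to 3 called members of a list with the smallest p, and the 5 largest interactions each way. Other list members are given by value and were chosen after their values were seen. Of the 109 genes named by rule, 45 overlap another tested gene. Deviations of same-numbered scrib and control libraries from their group means correlated at 0.126, 0.119 and 0.143 across genes. The labels do not say that equal numbers are pairs, so the main fit held no replicate block. Alternatives were DESeq2 1.42.0, its size factors, other filters and thresholds, a replicate block, left-out libraries and no ribosomal RNA genes. Promoter and protein sequences were not used here.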

Additional observations from a re-analysis of the deposited data

Results flagged for a closer look

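The effect of losing scrib in the fos mutant was set against its effect with fos intact by the interaction term of edgeR's quasi-likelihood test, and 2517 of 10834 genes (23.2%) differed at an adjusted p below 0.05. Of the genes given by value here, 108 were among them, and each value is the log2 fold change of scrib fos over fos minus that of scrib over control. A value below 0 means a smaller rise or a larger fall in the fos mutant. In some alternative settings the interaction call was lost for Act5C, amon, dally, dpr16, E(spl)m3-HLH, egr, gl, GstE1, Hsp23 and ImpL2. The same held for kay, Mcm3, Nop56, Nopp140, Oseg5, sev, spz, Syt1 and tio. With DESeq2 the adjusted p for the interaction of dpr16 was 0.0529.

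Those that were higher in both backgrounds, with the smaller rise in the fos mutant, numbered 20 and had interactions of -1.97 for Pvf1, -1.57 for cher, -1.36 for FASN1, -1.25 for puc, -0.87 for bmm, -0.79 for scaf, -0.74 for fj and -0.71 for vn. Next in size were -0.70 for mod, -0.64 for sqh, -0.55 for kay, -0.47 for Jra, -0.46 for dpr16, -0.38 for ImpL2 (not called with the replicate block, adjusted p = 0.0519), -0.37 for Moe and -0.28 for Drice. The smallest were -0.25 for dally, -0.23 for Nopp140, -0.21 for Act5C and -0.18 for Nop56. Those that were called higher in scrib over control and not called in scrib fos over fos numbered 8 and had interactions of -5.06 for Ilp8, -4.13 for Tdc1, -3.99 for Tdc2, -3.82 for aspr, -3.61 for upd1, -3.57 for Mmp1, -2.93 for Ets21C and -2.47 for insc. Those that were higher in scrib over control and lower in scrib fos over fos numbered 8 and had interactions of -4.50 for Tig, -2.45 for moody, -2.16 for chinmo, -1.54 for Socs36E, -0.78 for trol, -0.73 for Mkk4, -0.61 for Myc and -0.55 for cnc. Those that were lower in scrib fos over fos and not called in scrib over control numbered 12 and had interactions of -3.78 for NimC1, -3.20 for Sr-CI, -2.95 for Glt, -2.80 for He, -1.98 for Col4a1, -1.77 for vkg, -1.37 for et and -1.24 for spz. Next in size were -1.04 for zfh1, -0.64 for ena, -0.55 for en and -0.30 for baz. Those that were lower in both backgrounds, with the larger fall in the fos mutant, numbered 9 and had interactions of -3.10 for eater, -2.86 for Hml, -2.78 for srp, -2.47 for PPO2, -2.40 for PPO1, -2.12 for Pxn, -0.97 for htl and -0.95 for SPARC. The smallest was -0.22 for E(spl)m3-HLH.

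Those that were higher in both backgrounds, with the larger rise in the fos mutant, numbered 8 and had interactions of 0.91 for ltl, 0.69 for Oseg5, 0.67 for Optix, 0.49 for serp, 0.42 for CycE, 0.36 for aurB, 0.24 for Mcm3 and 0.21 for CycB. Those that were higher in scrib fos over fos and not called in scrib over control numbered 11 and had interactions of 2.72 for TwdlE, 2.53 for lectin-28C, 0.62 for ey, 0.56 for Diap1, 0.54 for Pglym78, 0.48 for pio, 0.44 for Ald1 and 0.38 for Gapdh1. Next in size were 0.34 for GstE1, 0.30 for tio and 0.22 for Sod3. Those that were higher in scrib fos over fos and lower in scrib over control numbered 5 and had interactions of 3.79 for retinin, 0.86 for toe, 0.83 for eyg, 0.76 for Tpi and 0.70 for toy. Those that were lower in scrib over control and not called in scrib fos over fos numbered 5 and had interactions of 2.43 for Spn43Aa, 2.12 for PGRP-LC, 1.15 for dac, 1.12 for Eip78C and 0.70 for so. Those that were lower in both backgrounds, with the smaller fall in the fos mutant, numbered 22 and had interactions of 3.63 for Cpr97Ea, 2.54 for ect, 2.47 for SK, 1.75 for ImpE2, 1.26 for dan, 1.06 for salm, 1.04 for eya and 1.03 for E(spl)m4-BFM. Next in size were 0.99 for danr, 0.96 for sev, 0.92 for svp, 0.80 for Wnt2, 0.79 for Syt1, 0.78 for Traf4, 0.75 for Hsp23 and 0.75 for E(spl)mdelta-HLH. The smallest were 0.71 for repo, 0.71 for gl, 0.61 for aos, 0.54 for amon, 0.33 for Mmp2 and 0.31 for egr.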

How the results depend on the processing

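Calls for scrib fos over fos held in most settings: over 159 genes given by value and all alternatives, 3125 of the tests kept direction and side of the threshold, 37 lost the call, 10 gained one and none changed sign. For the interaction these numbers were 3035, 113, 24 and 2, and both reversals were of Ldh, -1.44 without replicate 1 of every genotype and -0.98 without control replicate 1, within a range of -0.98 to 1.73 over single libraries left out (the cause was not tested). The 5138 calls became 4982 with DESeq2, 5193 with its size factors, 5132 with no filter, 4159 with at least 5 CPM in 3 libraries, 4722 with only the groups compared in the fit, 5248 without ribosomal RNA genes, 5005 without replicate 1 of every genotype and 3756 at an adjusted p below 0.01, where the interaction had 1576. With a fold change of at least 2, 1101 genes were called in scrib fos over fos (96 higher, 1005 lower), 1520 in scrib over control, 677 in the interaction, 748 in the same direction in both backgrounds (668 with the interaction not called) and 669 in 3 backgrounds, since few changes are that large. The same-numbered scrib fos and fos libraries correlated at 0.176, 0.0353 and 0.149 in their deviations, and each correlated best with its own number. Whether equal numbers pair the libraries is not given, and the main fit did not pair them. The replicate block gave 5157 calls (2503 higher, 2654 lower), 2483 interactions and 3365 shared calls. With the block the interaction of ImpL2 lost its call (-0.38, adjusted p = 0.0519) and that of elav gained one (0.39, adjusted p = 0.0192), and no other call of these 159 genes changed. Leaving out 1 library gave 4476 (without fos replicate 2) to 5385 (without scrib replicate 1) calls in scrib fos over fos, 2294 to 2794 higher and 2163 to 2601 lower. It gave 5142 to 6071 calls in scrib over control, 2106 to 2519 interactions, 3090 to 3549 shared calls (2473 to 2754 with the interaction not called) and 2553 to 2946 in 3 backgrounds. Of 696 list counts with 1 library left out 34 moved by over 1.5 times, among them 2 JNK cascade members and 1 polarity gene higher without scrib fos replicate 1, 2 ecdysone genes, 1 blood marker (crq) and 1 glial marker higher without scrib fos replicate 3, 1 Yorkie target lower without scrib fos replicate 2 or 3 or fos replicate 2, 8 Hippo components higher without scrib replicate 1 and 3 basement membrane genes higher without scrib replicate 3. Of the calls, 48.5% were higher, 48.1% at an adjusted p below 0.01, 8.72% with a fold change of at least 2 and 48.5% to 53.9% in the other settings. Precision is limited by 3 libraries a genotype, and genes near 1 CPM rest on few counts.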

Other observations

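Gene families were grouped by symbol after their values were seen, and calls in scrib fos over fos were counted, beside 23.0% of all genes higher and 24.4% lower. All 32 tested proteasome subunit genes were higher, with a median log2 fold change of 0.28, and 29 were higher in scrib over control, with the interaction called for 1. Of 66 cytoplasmic ribosomal protein genes 10 were higher and 1 lower, against 58 higher in scrib, and the interaction was called for 3. Families of surface proteins of the nervous system fell: 13 of 16 dpr genes, 7 of 8 sidestep genes and 6 of 7 beaten path genes were lower, with medians of -1.46, -1.61 and -1.37, and 1 dpr gene (dpr16) was higher. Some of these genes rest on few counts, such as dpr3 (0.0803 CPM in scrib fos, 0.464 in fos) and beat-IIa (0.121 and 0.610). Others, such as dpr12, side-VI and beat-IIIc, averaged above 10 CPM in fos. Of 10 Osiris genes, which encode proteins of the insect cuticle and trachea, 9 were lower, with a median of -2.17, against -4.00 in scrib over control. Apart from Osi24 and Osi4 the Osiris genes averaged below 5 CPM in fos. Osi3, Osi5 and Osi7 stood at 0.0559, 0.0431 and 0.187 CPM in scrib fos, so their changes rest on few counts. Osi24, the highest in fos, had 17.9 CPM in scrib fos and 24.8 in fos (log2 fold change -0.47). Calls were mixed in the glutathione S-transferase family, with 5 higher and 7 lower of 27, and among cuticular protein (Cpr) genes, with 2 higher and 8 lower of 24. Of 5 Idgf genes, secreted chitinase-like growth factors, 4 were lower and 1 higher. By chromosome arm, 44.6% (2R) to 51.0% (3R, the arm of scrib and kay) of genes were called, and of 96 tested genes of chromosome 4, 46 were lower and 7 higher. Of 746 noncoding RNA genes 88 were higher and 179 lower, against 2371 and 2419 of 9703 protein-coding genes.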
